A study of Arabidopsis thaliana with 12 samples.

Results

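The cellulose synthase superfamily of Arabidopsis comprises the *CESA* genes, which encode the catalytic subunits of cellulose synthase, and the cellulose synthase-like (*CSL*) genes. Its members were taken from the deposited gene table by their symbols (*CESA* or *CSLA* to *CSLH* followed by a number, with or without the prefix AT), which gave 35 of 22953 genes: 7 *CESA*, 9 *CSLA*, 6 *CSLB*, 5 *CSLC*, 4 *CSLD*, 1 *CSLE* and 3 *CSLG* genes. *CESA3*, *CESA7* and *CESA8* stand in the table under their older names *CEV1*, *IRX3* and *IRX1*, so the symbols did not take them; they were matched by synonym to RefSeq, are described beside the members and are in none of the counts of members. RNA of shoots of Columbia-0 seedlings was sequenced in 4 groups of 3 libraries: the mutant *tmt2* on sucrose-free 1/2 MS medium (*tmt2-S*), *tmt2* on this medium with 1% sucrose added (*tmt2-L-Suc*), WT with 1% sucrose (WT-Suc) and WT on sucrose-free medium (WT). The *tmt2* mutant is a single T-DNA line of *TMT2*, a sugar carrier of the vacuolar membrane, with its insertions in the last exon. The *tmt2-S* seedlings were those that had made no true leaves. The paper gives the name *tmt2-L* to mutant seedlings that developed normally, so *tmt2-L-Suc* may likewise be a chosen part of the mutant seedlings. By the labels the *tmt2-S* seedlings were 7 days old and the other 3 groups 5 days. In every comparison with *tmt2-S*, its age, its arrest and its genotype or medium therefore cannot be told apart. The labels do not say whether replicates came from separate cultures, so p-values measure only the spread between these libraries.

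CESA proteins sit in rosette-shaped complexes of the plasma membrane and draw glucan chains from UDP-glucose, which bundle into the cellulose microfibrils of the wall. Growing primary walls are made with CESA1, CESA3 and a CESA6-like subunit, and the secondary walls of xylem vessels and fibres with CESA4, CESA7 and CESA8. CSL proteins share the same fold: CSLA enzymes make the backbone of mannans, CSLC enzymes that of xyloglucan, and CSLD enzymes act at growing tips and at the cell plate of dividing cells, while the products of the CSLB and CSLE enzymes of Arabidopsis are poorly known.

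What the rule did not use, but these genes share, is a glycosyltransferase motif called QxxRW at the catalytic site. A script found it once in the coding sequence of 37 of the 38 genes (*CESA3*, *CESA7* and *CESA8* included) and in *CSLE1* as the remaining gene at 2 places, of which the one nearer the end is shown. The 45-base coding stretches below, from RefSeq TAIR10.1, are those of the genes on which the results turn, with the 15 bases that code for the motif in capitals.
CESA1 (chr4:15641856-15641900, minus strand): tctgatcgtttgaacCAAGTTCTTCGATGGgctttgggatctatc
CESA4 (chr5:17718382-17718426, plus strand): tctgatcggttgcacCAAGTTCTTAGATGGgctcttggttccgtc
CESA7 (chr5:5737701-5737745, minus strand): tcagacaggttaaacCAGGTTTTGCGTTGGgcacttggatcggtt
CESA8 (chr4:10313697-10313741, minus strand): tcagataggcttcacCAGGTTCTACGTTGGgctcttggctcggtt
CSLD5 (chr1:595450-595494, minus strand): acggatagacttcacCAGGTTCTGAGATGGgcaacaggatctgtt
CSLA9 (chr5:986770-986814, minus strand): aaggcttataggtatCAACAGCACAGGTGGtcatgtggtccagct
CSLC8 (chr2:10472313-10472357, minus strand): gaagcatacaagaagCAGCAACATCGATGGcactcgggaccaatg
CSLB3 (chr2:13812499-13812543, plus strand): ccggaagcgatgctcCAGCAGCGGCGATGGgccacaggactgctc
CSLB4 (chr2:13817326-13817370, plus strand): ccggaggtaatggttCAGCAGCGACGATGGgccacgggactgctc
CSLE1 (chr1:20878567-20878611, plus strand): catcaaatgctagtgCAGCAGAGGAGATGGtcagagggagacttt
Set against the 45 bases of *CESA1*, 37 were identical in *CESA4*, 29 in *CSLD5*, 22 in *CSLB3*, 18 in *CSLA9* and 16 in *CSLE1*. The stretches of *CSLB3* and *CSLB4* had 38 bases in common and those of *CSLD2* and *CSLD3*, which are not shown, 43. Over whole coding sequences, however, *CSLB3* and *CSLB4* had only 7.37% of their 31-base words in common, *CESA4*, *CESA7*, *CESA8* and *CSLE1* shared none with any of the other 37 genes, and *CSLB6* shared 19.8% with *CSLB5*. Reads of *CSLB6* and *CSLB5* could be split between them in the counting, so values of *CSLB6* are uncertain in this respect.

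Totals of the libraries lay between 20187961 and 21370053 expected counts. *TMT2* itself had 21.8 to 25.4 FPKM (fragments scaled by transcript length and library depth) in *tmt2-S*, 10.8 to 24.8 in *tmt2-L-Suc*, 7.33 to 11.4 in WT-Suc and 7.04 to 9.36 in WT, and since its insertions lie in the last exon, reads before them are still counted and this level does not check the labels. As a check on the label of shoots, the summed root hair markers had at most 4.81 FPKM in any library. The summed xylem vessel markers had 1.19 to 3.04 FPKM in *tmt2-S*, 33.9 to 36.5 in *tmt2-L-Suc*, 7.18 to 16.9 in WT-Suc and 8.54 to 11.3 in WT. WT-Suc replicate 2 stood apart by 139.6 FPKM of summed seed markers, against at most 2.04 in any other library. Over genes not at low counts, however, WT-Suc replicate 1 differed most from its group. The chi-square per gene was 44.8 and 52.9 between it and replicates 2 and 3, and 11.4 between those. In *tmt2-S* it was 66.2 and 83.1 for replicate 1 against 2 and 3, and 43.7 between those. Leaving out WT-Suc replicate 1 was the omission of 1 library that changed the count of members called most in *tmt2-L-Suc*/WT-Suc and in WT-Suc/WT.

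The 8 members below the filter on low counts were *CESA10*, *CSLA1*, *CSLB1*, *CSLB2*, *CSLB5*, *CSLD1*, *CSLG1* and *CSLG2*, with at most 13 counts in any library. The other 27 members were tested. By mean FPKM over the 4 groups, which allows levels of different genes to be compared per length, *CESA1* was the most abundant member at 43.0, followed by *CSLE1* at 36.6, *CESA6* at 28.9 and *CSLC4* at 26.2. *CESA3*, at 41.6, came close to *CESA1*. The order of the means differed by group. In *tmt2-S*, *CSLE1* and *CSLB3* stood above every *CESA* gene by their means. In *tmt2-S* replicate 3, however, *CSLB3* (28.2 FPKM) was below *CESA1* (46.7) and *CESA3* (44.9). In WT-Suc and WT, *CSLE1* and *CSLB3* stood below *CESA1*, *CESA3*, *CESA6* and *CESA2*.

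The primary-wall subunits did not pass the test in *tmt2-S*, and their levels there overlapped those of WT. *CESA1* (AT4G32410, chr4:15640490-15646844 of TAIR10.1, minus strand), which no primary-wall complex lacks, had 24.2, 38.4 and 46.7 FPKM in *tmt2-S*, 47.7, 51.8 and 39.7 FPKM in *tmt2-L-Suc*, 58.4, 50.2 and 39.1 in WT-Suc and 34.3, 37.5 and 47.4 in WT. *CESA3* (AT5G05170, chr5:1530132-1535558), the second obligate subunit, had 20.7, 37.9 and 44.9 FPKM in *tmt2-S*, 44.9, 49.2 and 35 FPKM in *tmt2-L-Suc*, 63.8, 53.4 and 39.6 in WT-Suc and 26.7, 35.9 and 46.8 in WT. *CESA6* (AT5G64740, chr5:25881033-25886728), which shares the remaining place in the complex with close relatives, had 16.9, 26.5 and 28 FPKM in *tmt2-S*, 29, 33.7 and 25.8 FPKM in *tmt2-L-Suc*, 41.3, 35.9 and 29.4 in WT-Suc and 21.4, 26.1 and 32.4 in WT. For each of the 3 genes the *tmt2-S* libraries overlapped those of every other group, apart from WT-Suc in the case of *CESA6*, and *tmt2-S* replicate 1 was the lowest of all 12 libraries. The means were 36.4 ± 11.4 FPKM in *tmt2-S* and 39.7 ± 6.86 in WT for *CESA1*, 34.5 ± 12.5 and 36.4 ± 10 for *CESA3*, and 23.8 ± 6.03 and 26.6 ± 5.53 for *CESA6* (SD, n = 3 each). The log2FC of *tmt2-S*/WT was -0.15 ± 0.23 (standard error) for *CESA1*, -0.10 ± 0.28 for *CESA3* and -0.18 ± 0.21 for *CESA6*, with adjusted p of 0.64, 0.81 and 0.52 from the quasi-likelihood test of edgeR with Benjamini-Hochberg adjustment over 18506 genes. None of the 3 passed an adjusted p of 0.05 in any of the other comparisons either. Without *tmt2-S* replicate 1, the log2FC turned to 0.08, 0.17 and 0.02, again without a call.

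The 3 genes varied together from library to library. Over the 12 libraries, Pearson's r of their log2 CPM (counts scaled by library depth) was 0.97 between *CESA1* and *CESA3*, 0.95 between *CESA1* and *CESA6* and 0.98 between *CESA3* and *CESA6*, and after subtraction of the group means it was 0.98, 0.97 and 0.99. These are descriptions over points that share libraries. Within a library, *CESA3* ran at 0.779 to 1.09 times the FPKM of *CESA1* and *CESA6* at 0.60 to 0.752 times. All 3 have coding sequences over 3000 bases, and for the 1047 tested genes of that length the median deviation from the mean of all libraries on the log2 scale was -0.07, 0.13 and 0.03 in *tmt2-S*, from 0.01 to 0.06 in *tmt2-L-Suc*, 0.07, 0.03 and 0.0045 in WT-Suc and -0.17, -0.08 and 0.04 in WT. The part of transcript length in the spread of the *CESA* genes was not tested.

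**Figure D1:**
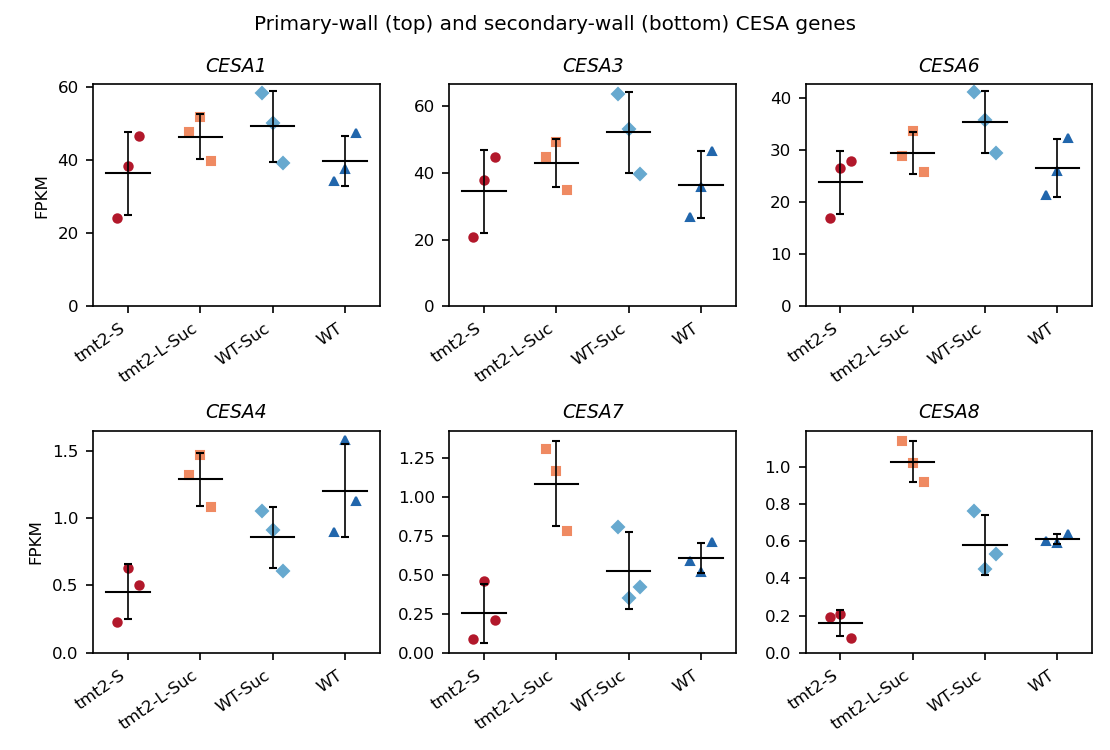
FPKM of *CESA1*, *CESA3* and *CESA6* (top) and of *CESA4*, *CESA7* and *CESA8* (bottom) in *tmt2-S*, *tmt2-L-Suc*, WT-Suc and WT, on linear axes from 0. Each point is a library, and the bars give the mean and SD of 3 libraries. In the top row *tmt2-S* overlaps WT, whereas in the bottom row the 3 *tmt2-S* libraries lie below the 3 WT libraries, with *CESA8* at 0.08 to 0.21 FPKM in *tmt2-S* and 0.59 to 0.64 in WT.

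The secondary-wall subunits were lower in *tmt2-S* than in WT, and all at levels of under 2 FPKM. *CESA4* (AT5G44030, chr5:17714390-17719723, plus strand) had 0.23, 0.63 and 0.5 FPKM in *tmt2-S*, 1.32, 1.47 and 1.08 FPKM in *tmt2-L-Suc*, 1.05, 0.91 and 0.61 in WT-Suc and 0.9, 1.58 and 1.13 in WT. *CESA7* (AT5G17420, chr5:5736630-5741500, minus strand) had 0.09, 0.46 and 0.21 FPKM in *tmt2-S*, 1.31, 1.17 and 0.78 FPKM in *tmt2-L-Suc*, 0.81, 0.35 and 0.42 in WT-Suc and 0.59, 0.52 and 0.71 in WT. *CESA8* (AT4G18780, chr4:10312624-10316886, minus strand) had 0.19, 0.21 and 0.08 FPKM in *tmt2-S*, 1.14, 1.02 and 0.92 FPKM in *tmt2-L-Suc*, 0.76, 0.45 and 0.53 in WT-Suc and 0.6, 0.59 and 0.64 in WT. For each gene all 3 *tmt2-S* libraries were below all 3 WT libraries and all 3 *tmt2-L-Suc* libraries, while WT-Suc and WT overlapped. These levels rest on few reads, with 12, 13 and 5 counts of *CESA8* in *tmt2-S* and 38, 37 and 40 in WT.

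In *tmt2-S*/WT the log2FC was -1.50 ± 0.33 for *CESA4* (edgeR adjusted p = 0.0029), -1.28 ± 0.46 for *CESA7* (adjusted p = 0.038) and -1.96 ± 0.33 for *CESA8* (adjusted p = 0.00045). Between *tmt2-S* and *tmt2-L-Suc* it was -1.53 ± 0.33, -2.02 ± 0.45 and -2.61 ± 0.32, with adjusted p of 0.002, 0.0023 and 3.7e-05. The call of *CESA7* in *tmt2-S*/WT was lost when any 1 library of *tmt2-S* or WT other than *tmt2-S* replicate 2 was left out, and its log2FC was -0.88 without *tmt2-S* replicate 1. It was -1.18 without *tmt2-S* replicate 3, -1.26, -1.37 and -1.19 without WT replicates 1, 2 and 3, and -1.30 with only the groups compared in the fit (adjusted p = 0.063). Those of *CESA4* and *CESA8* were kept.

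Over the 12 libraries, r was 0.87 between *CESA4* and *CESA7*, 0.82 between *CESA4* and *CESA8* and 0.84 between *CESA7* and *CESA8*. Within groups it was 0.64, 0.03 and 0.31, so these genes moved together between the groups more than from replicate to replicate, at counts that leave wide counting error. The summed xylem vessel markers given above (*XCP1*, *XCP2*, *TED6* and *VND7*) were likewise lowest in *tmt2-S* and highest in *tmt2-L-Suc*. Of the 3 tested, 2 passed as lower in *tmt2-S*/WT (all tested genes: 22.6%), the proteases *XCP2* (-2.49) and *XCP1* (-2.20). None of the 4 was at 0 in all *tmt2-S* libraries. Their part in the fall of the *CESA* genes was not tested, and in whole shoots fewer cells of a type and less RNA per cell cannot be told apart. In the annotation *CESA4* overlaps AT5G44020, on the same strand, by 17 bases and AT5G44040 by 65, and *CESA7* overlaps AT5G17410 by 66 bases. The log2FC of these neighbours in *tmt2-S*/WT was 0.14, -0.36 and -0.70 (edgeR adjusted p = 0.76, 0.18 and 0.0027). AT5G44020 averaged 415 FPKM in *tmt2-S* and 371 in WT, far above *CESA4*. The part of reads from neighbours in the counts of *CESA4* and *CESA7* was not tested. *CESA8* has the longest overlaps, of 481 bases with AT4G18770 and 81 with AT4G06845, both on the opposite strand and not analysed here. Whether the counting used strand is not given in the sources used here.

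Set beside each other, the sum of *CESA1*, *CESA3* and *CESA6* was 61.8 to 119.7 FPKM in *tmt2-S*, 100.5 to 134.7 in *tmt2-L-Suc*, 108.2 to 163.5 in WT-Suc and 82.4 to 126.6 in WT. The sum of *CESA4*, *CESA7* and *CESA8* was 0.51 to 1.30 FPKM in *tmt2-S*, 2.78 to 3.77 in *tmt2-L-Suc*, 1.56 to 2.62 in WT-Suc and 2.09 to 2.69 in WT. The secondary-wall genes thus made up 0.656 to 1.25% of the 6 genes' FPKM in *tmt2-S*, 2.65 to 3.01% in *tmt2-L-Suc*, 1.21 to 1.58% in WT-Suc and 1.92 to 2.63% in WT. This share was lower in every *tmt2-S* library than in every *tmt2-L-Suc* and WT library, but overlapped WT-Suc.

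**Figure D2:**
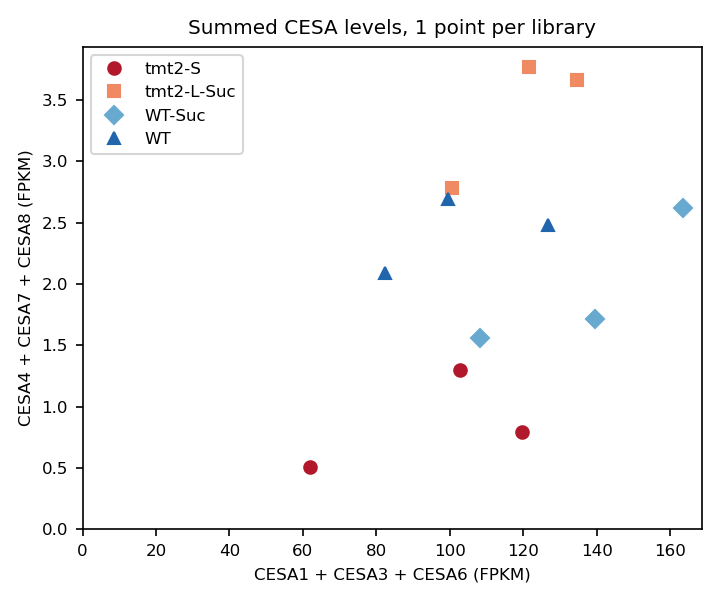
Summed FPKM of the secondary-wall genes *CESA4*, *CESA7* and *CESA8* (vertical) against that of the primary-wall genes *CESA1*, *CESA3* and *CESA6* (horizontal), 1 point per library, both axes linear from 0. Along the vertical axis *tmt2-S* lies lowest, at 0.51 to 1.30 FPKM, and *tmt2-L-Suc* highest, at 2.78 to 3.77, while WT-Suc and WT overlap in between; along the horizontal axis *tmt2-S* overlaps every other group.

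Of the other *CESA* genes, *CESA2* and *CESA5* belong to the CESA6-like subunits, and neither was called in *tmt2-S*/WT. *CESA2* averaged 13.7 ± 1.98 FPKM in *tmt2-S*, 17.2 ± 1.66 in *tmt2-L-Suc*, 23 ± 1.72 in WT-Suc and 16.6 ± 0.978 in WT, and its log2FC was -0.32 ± 0.15 in *tmt2-S*/WT (edgeR adjusted p = 0.098). *CESA5*, known for the mucilage of the seed coat, averaged 9.08 ± 3.25, 13.1 ± 1.29, 7.56 ± 3.64 and 9.13 ± 0.981 FPKM in the same order of groups, with a log2FC of -0.06 ± 0.29. *CESA9*, a subunit of seed coat walls, had at most 26 counts in any library. It passed only in *tmt2-S*/*tmt2-L-Suc*, at -1.59 ± 0.59 (edgeR adjusted p = 0.039), a call that was lost in 5 of 9 fits with replicates left out, at -1.11 without *tmt2-S* replicate 1 and -1.23 and -1.66 without *tmt2-L-Suc* replicates 2 and 3, and with only the groups compared in the fit (adjusted p = 0.057).

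Across the superfamily, 13 of the 27 tested members passed an adjusted p of 0.05 in *tmt2-S*/WT, where 43.3% of all tested genes passed. Of them 4 were higher (all genes: 20.7%) and 9 lower (22.6%), and 9 also had a |log2FC| of at least 1.2 (19.8% of all genes). The count of members is near the background. The median log2FC was -0.32 over the tested members and -0.01 over all tested genes. By subfamily, 4 of 8 tested *CSLA* genes, 2 of 5 *CSLC* genes and 1 of 6 *CESA* genes were lower and none of these higher, whereas the higher ones were *CSLE1*, *CSLB3*, *CSLB4* and *CSLD2*.

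**Figure D3:**
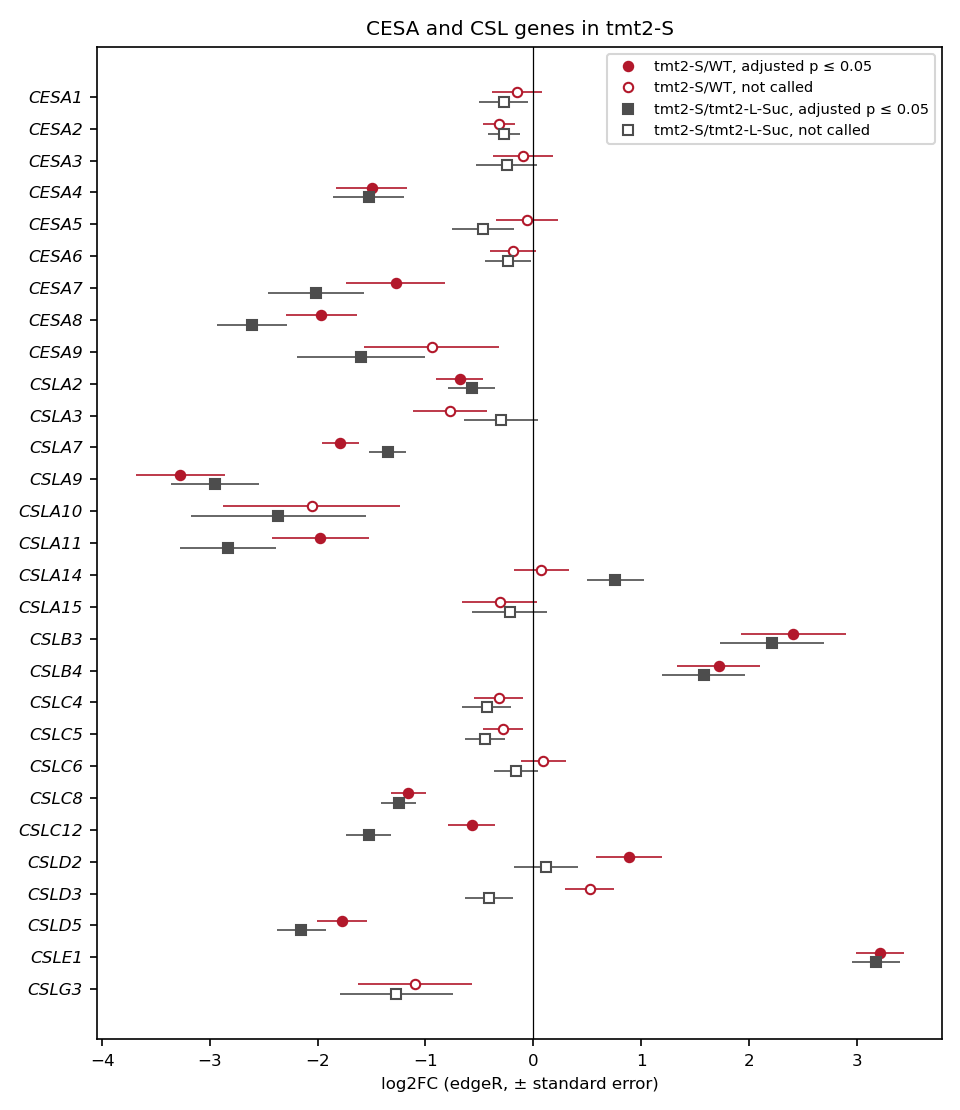
Log2FC with its standard error for the tested *CESA* and *CSL* genes in *tmt2-S*/WT (circles) and *tmt2-S*/*tmt2-L-Suc* (squares), which share the *tmt2-S* libraries, with filled symbols for an adjusted p of at most 0.05. *CSLB6*, whose counts were 0 or 1 in *tmt2-S*, is left out. *CSLE1*, *CSLB3* and *CSLB4* lie to the right of 0 in both comparisons, and *CSLA9*, *CSLA11*, *CSLA7*, *CSLD5* and the secondary-wall *CESA* genes to the left.

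*CSLE1* (AT1G55850, chr1:20876440-20879482) was the member with the largest rise. It had 115, 126 and 83.8 FPKM in *tmt2-S*, 12.6, 12.3 and 12.6 FPKM in *tmt2-L-Suc*, 16.1, 13.1 and 13.6 in WT-Suc and 14.7, 8.15 and 11 in WT. Every *tmt2-S* library was over 5 times as high as any library of the other groups. WT overlapped both *tmt2-L-Suc* and WT-Suc, and these 2 lay apart by a small gap. The log2FC was 3.21 ± 0.22 in *tmt2-S*/WT (9.28-fold, edgeR adjusted p = 1.4e-06) and 3.18 ± 0.22 in *tmt2-S*/*tmt2-L-Suc* (9.06-fold, adjusted p = 8.3e-07).

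*CSLB3* and *CSLB4*, neighbours on chromosome 2 (chr2:13809019-13813572 and chr2:13814543-13818410), were the other members with a clear rise. *CSLB3* had 34.1, 60.5 and 28.2 FPKM in *tmt2-S*, 5.88, 12.6 and 8.75 FPKM in *tmt2-L-Suc*, 4.93, 1.54 and 1.19 in WT-Suc and 10.6, 5.98 and 5.56 in WT. *CSLB4* had 23.3, 39.7 and 20.9 FPKM in *tmt2-S*, 7.17, 12.6 and 9.26 FPKM in *tmt2-L-Suc*, 8.56, 2.82 and 2.87 in WT-Suc and 9.55, 7.62 and 7.47 in WT. For both genes the *tmt2-S* libraries lay above all others. The log2FC of *tmt2-S*/WT was 2.41 ± 0.49 for *CSLB3* (adjusted p = 0.0017) and 1.72 ± 0.39 for *CSLB4* (adjusted p = 0.0033), and that of *tmt2-S*/*tmt2-L-Suc* was 2.22 ± 0.48 and 1.58 ± 0.38 (adjusted p = 0.0021 and 0.0042, all from edgeR). The genes varied together over the 12 libraries (r = 0.99, within groups 0.97), yet their balance differed: within a library, the FPKM of *CSLB3* was 1.35 to 1.52 times that of *CSLB4* in *tmt2-S*, 0.82 to 0.998 times in *tmt2-L-Suc*, 0.415 to 0.576 times in WT-Suc and 0.744 to 1.11 times in WT. The *tmt2-S* and WT-Suc ranges of this ratio overlapped with no other group.

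The remaining genes of these subfamilies were at low levels. *CSLB6* had 1, 0 and 0 counts in *tmt2-S*, 0, 7 and 0 counts in *tmt2-L-Suc*, 32, 8 and 27 in WT-Suc and 17, 27.9 and 27 in WT. It was called lower in *tmt2-S*/WT (edgeR adjusted p = 0.0017), and against a floor of 3 counts per library it was at least 7.99-fold lower, a bound without the spread of WT. *CSLG3*, of a subfamily whose relatives in spinach and legumes add glucuronic acid to triterpenoids, averaged 0.59 ± 0.286 FPKM in *tmt2-S*, 1.45 ± 0.722 in *tmt2-L-Suc*, 0.6 ± 0.452 in WT-Suc and 1.27 ± 0.328 in WT. Its log2FC of -1.10 ± 0.53 in *tmt2-S*/WT did not pass (edgeR adjusted p = 0.11).

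The *CSLA* genes, whose products make (gluco)mannan, included the largest falls apart from that of *CSLB6*, for which only a bound can be given. *CSLA9* (AT5G03760, chr5:985622-990630), the main glucomannan synthase of stems, had 3.29, 1.42 and 0.66 FPKM in *tmt2-S*, 11.6, 16.2 and 15.4 FPKM in *tmt2-L-Suc*, 15.3, 10.2 and 9.36 in WT-Suc and 17.7, 17.6 and 14.9 in WT. *CSLA7* (AT2G35650, chr2:14985470-14988362), which embryos need to develop, had 3.26, 2.7 and 2.53 FPKM in *tmt2-S*, 9.07, 6.49 and 7.52 FPKM in *tmt2-L-Suc*, 13, 12.2 and 11.6 in WT-Suc and 7.17, 11 and 11.2 in WT. *CSLA11* (AT5G16190, chr5:5283447-5286842) had 0.54, 0.72 and 0.12 FPKM in *tmt2-S*, 4.21, 3.22 and 2.96 FPKM in *tmt2-L-Suc*, 2.29, 1.64 and 1.26 in WT-Suc and 1.87, 2.28 and 1.67 in WT. In each of the 3 the *tmt2-S* libraries were below all 9 others. The log2FC of *tmt2-S*/WT was -3.27 ± 0.41 for *CSLA9*, -1.79 ± 0.17 for *CSLA7* and -1.98 ± 0.45 for *CSLA11* (edgeR adjusted p = 6.4e-05, 9.9e-06 and 0.0037). That of *tmt2-S*/*tmt2-L-Suc* was -2.95 ± 0.41, -1.35 ± 0.17 and -2.83 ± 0.45 (adjusted p = 9.2e-05, 4.8e-05 and 0.00022).

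The other *CSLA* genes moved less or were less certain. *CSLA2*, the mannan synthase of seed mucilage, had a log2FC of -0.68 ± 0.22 in *tmt2-S*/WT (edgeR adjusted p = 0.024). It lost its call without *tmt2-S* replicate 1 (-0.47) or without WT replicate 1 (-0.56). *CSLA3*, *CSLA14* and *CSLA15* did not pass, with -0.77 ± 0.34, 0.08 ± 0.26 and -0.31 ± 0.35 (adjusted p of 0.085, 0.84 and 0.5 from edgeR). *CSLA10* had 18, 0 and 0 counts in *tmt2-S* and 28, 26 and 20 in WT, so that 1 *tmt2-S* library came close to the lowest WT library, and its log2FC of -2.06 ± 0.82 missed the threshold (adjusted p = 0.06). It was called without *tmt2-S* replicate 1, when both libraries left were at 0, by DESeq2 (adjusted p = 0.031) and with the replicate number as a block (0.047). Against *tmt2-L-Suc* it passed at -2.36 ± 0.81 (adjusted p = 0.027), but in 7 of 9 fits with replicates left out it did not, among them those without *tmt2-S* replicate 2 or 3 and without each *tmt2-L-Suc* replicate.

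**Figure D4:**
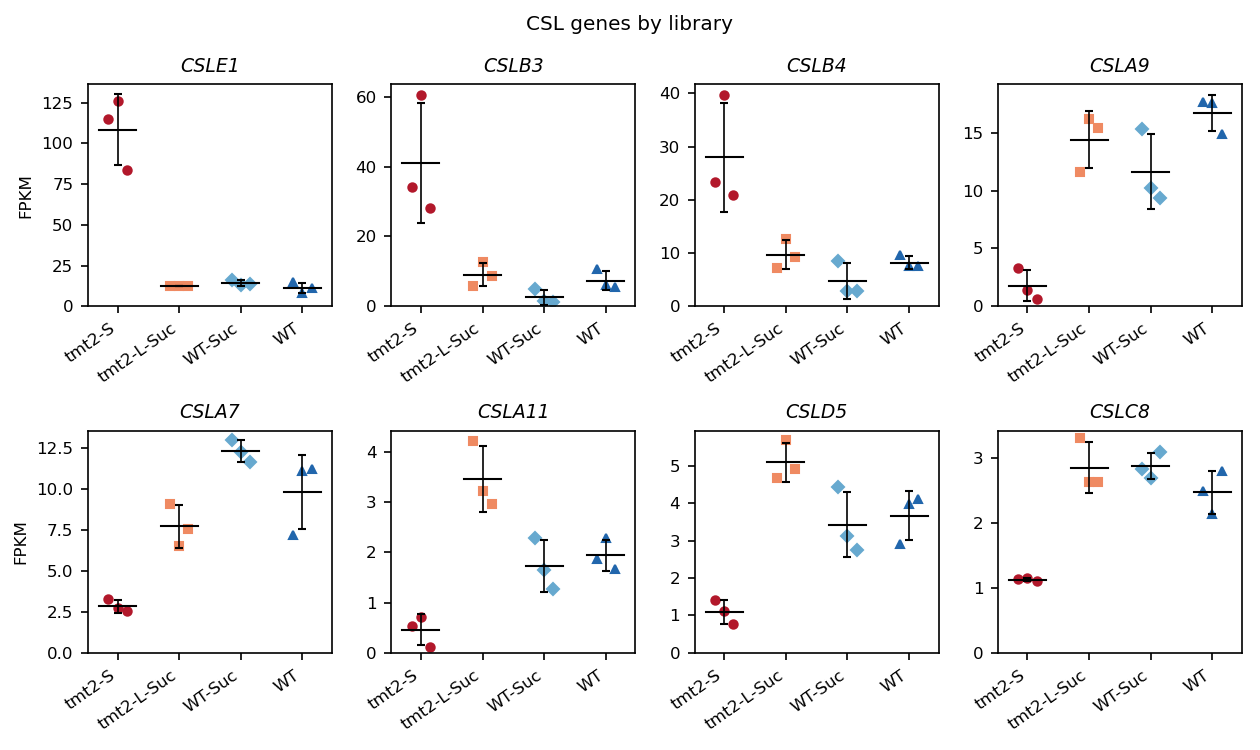
FPKM of 8 *CSL* genes in *tmt2-S*, *tmt2-L-Suc*, WT-Suc and WT, on linear axes from 0, with a point for each library and bars for the mean and SD of 3 libraries. *CSLE1*, *CSLB3* and *CSLB4* stand highest in *tmt2-S*, with *CSLE1* at 83.8 to 125.8 FPKM, whereas the other 5 genes stand lowest there, with *CSLA9* at 0.66 to 3.29 FPKM against 14.9 to 17.7 in WT.

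Among the *CSLC* genes, which make the glucan backbone of xyloglucan, the abundant *CSLC4* did not pass and 2 of the less abundant ones were lower. *CSLC4*, the major gene of the subfamily, averaged 19.5 ± 5.21 FPKM in *tmt2-S*, 27.5 ± 5.45 in *tmt2-L-Suc*, 34 ± 6.25 in WT-Suc and 23.9 ± 5.2 in WT, with a log2FC of -0.32 ± 0.23 in *tmt2-S*/WT (edgeR adjusted p = 0.28). Its log2 CPM correlated with that of *CESA1* over the libraries (r = 0.90). *CSLC5* (-0.28 ± 0.18) and *CSLC6* (0.09 ± 0.21) were not called either. *CSLC8* had 1.13, 1.15 and 1.1 FPKM in *tmt2-S*, 3.31, 2.63 and 2.63 FPKM in *tmt2-L-Suc*, 2.84, 2.7 and 3.09 in WT-Suc and 2.49, 2.14 and 2.8 in WT. The *tmt2-S* libraries were the lowest and within 0.05 FPKM of each other, and the log2FC was -1.16 ± 0.16 in *tmt2-S*/WT and -1.25 ± 0.16 in *tmt2-S*/*tmt2-L-Suc* (adjusted p = 0.00012 and 4.7e-05, edgeR).

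*CSLC12* was the only tested member called in opposite directions in these comparisons of genotypes, lower in *tmt2-S*/WT and higher in *tmt2-L-Suc*/WT-Suc. It had 0.93, 0.69 and 0.68 FPKM in *tmt2-S*, 2.38, 2.42 and 2.16 FPKM in *tmt2-L-Suc*, 1.18, 1.04 and 1.36 in WT-Suc and 1.04, 1.26 and 1.03 in WT. The *tmt2-S* libraries lay below WT, and the *tmt2-L-Suc* libraries above all 9 others. Its log2FC was -0.57 ± 0.22 in *tmt2-S*/WT (edgeR adjusted p = 0.048), -1.53 ± 0.21 in *tmt2-S*/*tmt2-L-Suc* (8.9e-05) and 0.93 ± 0.20 in *tmt2-L-Suc*/WT-Suc (0.0087). The first of these calls was lost in all 6 other fits and in 8 of 9 with replicates left out, at log2FC from -0.75 to -0.38, with DESeq2 at -0.55 (adjusted p = 0.072). It was kept only without *tmt2-S* replicate 1.

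Among the *CSLD* genes, *CSLD5* was lower and *CSLD2* higher in *tmt2-S*/WT. *CSLD5* (AT1G02730, chr1:594502-598657), which acts at the cell plate of dividing cells, had 1.4, 1.12 and 0.76 FPKM in *tmt2-S*, 4.67, 5.69 and 4.92 FPKM in *tmt2-L-Suc*, 4.43, 3.12 and 2.75 in WT-Suc and 2.92, 3.97 and 4.12 in WT. All 3 *tmt2-S* libraries were below the 9 others, and the log2FC was -1.77 ± 0.23 in *tmt2-S*/WT and -2.15 ± 0.23 in *tmt2-S*/*tmt2-L-Suc* (edgeR adjusted p = 8e-05 and 1.4e-05). *CSLD2* and *CSLD3*, are known for tip growth of root hairs. *CSLD3* had 4.36, 8.44 and 6.22 FPKM in *tmt2-S*, 9.41, 7.74 and 9.58 FPKM in *tmt2-L-Suc*, 4.81, 3.09 and 2.78 in WT-Suc and 3.51, 4.96 and 4.47 in WT. *CSLD2* had 2.44, 5.81 and 4.67 FPKM in *tmt2-S*, 4.62, 3.83 and 4.13 FPKM in *tmt2-L-Suc*, 2.95, 1.76 and 1.69 in WT-Suc and 1.46, 2.95 and 2.44 in WT. Here *tmt2-S* overlapped WT and *tmt2-L-Suc* did not. *CSLD2* passed as higher in *tmt2-S*/WT at 0.89 ± 0.30 (adjusted p = 0.032), but not without *tmt2-S* replicate 2 (0.62) or 3 (0.80) or WT replicate 1 (0.67) or 3 (0.90), and *CSLD3* did not pass at 0.52 ± 0.23 (0.082), except without *tmt2-S* replicate 1 (0.74). Of the 6 root hair markers, 2 were tested and both were called lower in *tmt2-S*/WT (all tested genes: 22.6%). Their mean counts were 0.333 (*PRP3*) and 0 (*LRX1*) in *tmt2-S* and 15.7 and 9.33 in WT. Of all 6, *EXPA18*, *LRX1*, *COBL9* and *RSL4* were at 0 in all *tmt2-S* libraries, and the sum of the 6 was at most 0.17 FPKM there, against 0.96 to 1.99 in WT. Their part in the values of *CSLD2* and *CSLD3* was not tested.

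Against *tmt2-L-Suc*, *tmt2-S* had 14 of the 27 tested members called, beside 51.5% of all tested genes, with 4 higher (all genes: 25.7%) and 10 lower (25.8%). This comparison shares the *tmt2-S* libraries with *tmt2-S*/WT, so the values of both are not independent. The higher members were *CSLE1*, *CSLB3*, *CSLB4* and *CSLA14* (0.76 ± 0.26, edgeR adjusted p = 0.027). The call of *CSLA14* was lost in 6 of 9 fits with replicates left out, at 0.64 without *tmt2-S* replicate 2 and at 0.71 and 0.63 without *tmt2-L-Suc* replicates 1 and 3. The lower ones were *CESA4*, *CESA9*, *CSLA2*, *CSLA7*, *CSLA9*, *CSLA10*, *CSLA11*, *CSLC8*, *CSLC12* and *CSLD5*, of which *CSLA2* was near the threshold (-0.57 ± 0.22, adjusted p = 0.044) and fell short in 8 of 9 such fits.

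Between *tmt2-L-Suc* and WT-Suc, 2 genotypes were compared at the same labelled age and on the same medium. If *tmt2-L-Suc* holds only mutant seedlings that developed normally, genotype and this choice of seedlings cannot be told apart. Here 7 of 27 tested members passed, beside 20.5% of all tested genes, and 4 of the 7 also had a |log2FC| of at least 1.2 (7.20% of all genes). Those higher in *tmt2-L-Suc* were *CSLB3* (1.84 ± 0.50), *CSLA15* (1.34 ± 0.37), *CSLD3* (1.30 ± 0.23), *CSLD2* (0.95 ± 0.31) and *CSLC12*, with edgeR adjusted p of 0.0031 to 0.044. Of 9 fits with replicates left out, the call was lost in 7 for *CSLD2*, which also missed with total counts (adjusted p = 0.052), in 6 each for *CSLB3* and *CSLA15*, in 5 for *CSLB6*, in 3 each for *CSLA7* and *CSLC12* and in 1 for *CSLD3*. *CSLB3* was lost without WT-Suc replicate 2 (1.60) or 3 (1.52) and without *tmt2-L-Suc* replicate 2 (1.46) or 3 (1.90), and *CSLA15* without the same libraries (1.14, 1.37, 1.07 and 1.37). *CSLD2* was lost without WT-Suc replicate 2 (0.85) or 3 (0.83) and without each *tmt2-L-Suc* replicate (0.91, 0.96 and 0.98). *CSLB6* was lost without WT-Suc replicate 3 and without *tmt2-L-Suc* replicate 1 or 3, *CSLC12* without WT-Suc replicate 2 (0.85) and *CSLA7* without *tmt2-L-Suc* replicate 3 (-0.65). Those lower were *CSLA7*, at -0.70 ± 0.16 (adjusted p = 0.012), and *CSLB6* (adjusted p = 0.022) on the low counts given above. *CSLA15* had 2.14, 3.68 and 2.83 FPKM in *tmt2-L-Suc*, against 1.48, 0.77 and 1.07 in WT-Suc, without overlap. *CESA4*, *CESA7* and *CESA8* had log2FC of 0.55 ± 0.31, 1.03 ± 0.42 and 0.80 ± 0.28 and did not pass (adjusted p of 0.22, 0.097 and 0.06). *CESA8* did by DESeq2 (0.82, adjusted p = 0.029) and with only the groups compared (0.81, 0.045). Without WT-Suc replicate 1, *CESA7* (1.42) and *CESA8* (1.00) passed. *CSLA11*, at 1.07 ± 0.39, missed (edgeR adjusted p = 0.072) but passed by DESeq2, with only the groups compared and with the replicate number as a block. DESeq2 also called *CESA2*, *CESA5* and *CSLB4*. Over all genes it called 4666, against 3790 by edgeR. The summed xylem markers were higher in every *tmt2-L-Suc* library than in any WT-Suc library. The count of members was 13 without WT-Suc replicate 1, 3 without WT-Suc replicate 2, 3 without WT-Suc replicate 3 and 2 without *tmt2-L-Suc* replicate 3. The count over all genes moved likewise, to 4763, 1532, 2003 and 1712 in these fits, against 3790 with all libraries. *CSLD3* was called in each of these 4.

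With sucrose in the WT, no member passed. In WT-Suc/WT, 0 of 27 tested members were called by edgeR, where 1.47% of all tested genes were. At an unadjusted p of at most 0.05 there were 5 (*CESA2*, *CSLA15*, *CSLB3*, *CSLB4* and *CSLG3*). The count over all genes at this unadjusted p was not taken, so these 5 have no background to be read against. DESeq2 called 2, *CSLA15* (-1.45, adjusted p = 0.0088) and *CSLB3* (-1.68, adjusted p = 0.015). Over all genes DESeq2 called 1161 of 18506 and edgeR 272. By edgeR the log2FC of *CSLA15* and *CSLB3* was -1.43 ± 0.37 and -1.65 ± 0.50 (adjusted p = 0.072 and 0.11). *CSLA15* had 1.48, 0.77 and 1.07 FPKM in WT-Suc, against 3.5, 2.74 and 2.29 in WT, without overlap. Without WT-Suc replicate 1, edgeR called *CSLB3* (-2.48), *CSLA15* (-1.63) and *CSLB4* (-1.57), all lower in WT-Suc, and without WT-Suc replicate 2 it called none, while over all genes it called 1445 and 0. The primary-wall genes were not called, at 0.23 ± 0.23 for *CESA1*, 0.45 ± 0.28 for *CESA3* and 0.34 ± 0.21 for *CESA6*.

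The interaction of genotype and sucrose, taken as the log2 change from no sucrose to sucrose in *tmt2* less that in WT, tests whether both genotypes answered alike. It was called for 10 of 27 tested members, beside 34.6% of all tested genes, with 9 positive (all genes: 18.1%) and 1 negative (16.6%). The largest positive values were those of *CSLA9* (3.57 ± 0.55), *CSLA11* (3.04 ± 0.60), *CSLG3* (2.43 ± 0.75) and *CSLD5* (2.33 ± 0.32), with edgeR adjusted p of 0.00057, 0.0024, 0.024 and 0.00029. The negative one was that of *CSLE1* (-3.43 ± 0.30, adjusted p = 3e-05). Among the secondary-wall genes it was 2.05 ± 0.45 for *CESA4*, 2.30 ± 0.62 for *CESA7* and 2.77 ± 0.43 for *CESA8*, and among the primary-wall genes 0.04 ± 0.33 for *CESA1*, -0.20 ± 0.39 for *CESA3* and -0.10 ± 0.30 for *CESA6*. The secondary-wall genes passed and the primary-wall genes did not. Without replicate 3 of every group, *CESA7* missed (2.21, edgeR adjusted p = 0.098). With replicates left out, *CSLA7* missed in 2 of 15 fits and *CSLC8* and *CSLC12* in 1 each. The call of *CSLA15* was lost in 5 of 15 fits with replicates left out, at 1.41 without WT replicate 1, 1.45 without WT-Suc replicate 2 and 1.38 without *tmt2-L-Suc* replicate 2. That of *CSLG3* was lost in 8 of 15 fits with replicates left out, at 2.15 without WT replicate 1, 2.27 and 2.08 without WT-Suc replicates 2 and 3, 2.08 and 2.33 without *tmt2-L-Suc* replicates 2 and 3 and 2.16 without *tmt2-S* replicate 3. For *CSLB3* and *CSLB4* it was -0.57 ± 0.68 and -0.68 ± 0.54 and did not pass (adjusted p = 0.54 and 0.35). The term contains the age and the arrest of *tmt2-S*, which cannot be told apart from the genotype's answer to sucrose.

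Genes that work with these enzymes were read from lists. Of 8 partners of cellulose synthesis in the table, 4 were lower and none higher in *tmt2-S*/WT, beside 22.6% of all genes lower and 20.7% higher, with a median log2FC of -0.50 (all tested genes: -0.01). The largest falls were those of *COBL4* (-2.55 ± 0.71) and the chitinase-like *CTL2* (-2.40 ± 0.49), both known from secondary walls. Both rest on few reads: *COBL4* averaged 3.67 counts in *tmt2-S* and 21.3 in WT, and *CTL2* 5.33 and 27.7. Next came *CSI3* (-0.53 ± 0.15), which links the complexes to microtubules. Its relative *CSI1*, of the same list, did not pass (-0.16 ± 0.20, edgeR adjusted p = 0.54). In *tmt2-S*, *CSI1* averaged 8.2 FPKM and *CSI3* 0.72. The endoglucanase *KOR1*, part of the complex, was at 0.54 ± 0.21 and did not pass. Of 8 partners of xyloglucan and mannan synthesis, 4 were lower and 1 higher, beside the same shares of all genes, and the median was -0.34. The higher one was the xylosyltransferase *XXT1* (0.51 ± 0.19, edgeR adjusted p = 0.049), and the largest falls were the galactosyltransferase *XLT2* (-2.55 ± 0.23) and the mannan-synthesis related *MSR1* (-0.89 ± 0.22) and *MSR2* (-0.59 ± 0.17).

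For the lists that follow, the shares of all tested genes in *tmt2-S*/WT were 20.7% higher and 22.6% lower. Of the 6 tested genes that supply UDP-glucose, 1 was higher there and none lower, the sucrose synthase *SUS3* at 1.48 ± 0.36. All 3 tested regulators of secondary walls were lower, on few reads: *VND6* averaged 0.667 counts in *tmt2-S* and 22.3 in WT, *SND2* 1.33 and 11.3, and *MYB46* 2.67 and 11.7. Of 11 genes listed for secondary walls, 7 were lower and 1, *FRA8*, was higher (1.15 ± 0.38). The list held genes of xylan and lignin and also *FLA11* and *FLA12*, which code for surface proteins and were among the lower ones. Its median was -1.64 (all tested genes: -0.01). The largest fall on more than 10 mean counts in both groups was that of *FLA11* (-2.82 ± 0.31), a surface protein of secondary walls. *IRX9*, of xylan synthesis, averaged 2.67 counts in *tmt2-S* and 14.3 in WT, and the laccase *LAC17*, of lignin, 5.67 and 24.3. In *tmt2-L-Suc*/WT-Suc, 2 of the 11 were higher and none lower, where 20.5% of all tested genes were called in either direction. The median was 1.03 (all tested genes: -0.02). Of the other marker lists in *tmt2-S*/WT, 1 of 3 epidermis genes (*PDF1*, -1.21 ± 0.17) and 1 of 3 genes of green tissue (*CAB1*, -0.51 ± 0.19) were lower, and the tested gene of the shoot apical meristem and both tested seed genes were not called.

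Outside the superfamily, the genes whose log2 CPM over the 12 libraries was most like the mean profile of *CESA1*, *CESA3* and *CESA6* were *TTL4* (Pearson's r = 0.98), AT2G36410 (0.96), AT4G27870 (0.95), *AUL1* (0.94) and the cytokinin receptor *HK2* (0.93). For *CESA4*, *CESA7* and *CESA8* they were *scpl25* (0.98), *BGLU33*, *PFK5* and *MRH2* (0.97 each) and AT1G54385 (0.97). The points share libraries and groups, and the values are given as a description.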

How the data were processed

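Shoot RNA of 12 libraries in 4 groups was analysed from the gene table the authors deposited. By their methods, reads were mapped to the TAIR10.1 genome with Bowtie2 and quantified with RSEM. The deposited values used were the expected counts (RSEM estimates, 1.35 to 2.13% of them not whole numbers, rounded here before tests) and FPKM, which the authors normalised for length and depth and which served for levels only, as mean ± SD of 3 libraries. The submitters' processing notes list TAIR10, and also the mouse builds GRCm38 and mm10. The deposited TPM and average columns were not used. Whether counting used strand is not given in the sources used here.

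Counts were tested with edgeR 4.0.16 in R 4.3.3 (TMM, filterByExpr, quasi-likelihood F-test, two-sided, 1 mean per group over all 12 libraries). P-values were adjusted by Benjamini-Hochberg over the 18506 genes tested, and a gene was called at an adjusted p of at most 0.05. The standard error given with a log2FC is an approximation, its absolute value divided by the square root of the F statistic of its test. The code was tested on simulated counts. Totals of 20187961 to 21370053 counts leave the low members, such as *CESA8*, with wide counting error. Alternatives were other scalings, DESeq2 1.42.0, no filter, only the groups compared, a replicate block and leaving out replicates. Log2 CPM (prior count 2) served for correlations.

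Every tested member is named. Values per library went to *CESA1*, *CESA3*, *CESA4*, *CESA6*, *CESA7*, *CESA8*, to *CSL* genes called in *tmt2-S*/WT with |log2FC| of at least 1.2 and to members called in both directions. From each list of related genes the 3 called genes with the largest |log2FC| and at least 10 counts on average over all libraries were named. *CSLC8*, *CSLD2*, *CSLD3*, *CSLA15*, *CSLA10*, *KOR1*, *CSI1*, *XXT1*, *MYB46*, *LRX1*, *SUS3*, *FRA8*, *FLA12*, *PDF1* and *CAB1* were singled out after their values were seen. Members and lists were chosen with earlier results of these data known. Of the 15 partners of cellulose synthesis, 7 were dropped because the annotation does not pair their symbols with the IDs. *CSLD4* and *CSLD6* were not analysed here.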

Additional observations from a re-analysis of the deposited data

Results flagged for a closer look

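For 12 genes the change from no sucrose to sucrose differed between *tmt2* and WT by the interaction test of edgeR (adjusted p of at most 0.05). They were 10 of the 27 tested members and, beside these, *CESA7* and *CESA8*. Of all tested genes, 34.6% passed this test. The difference, on the log2 scale and as *tmt2* less WT, was 2.05 for *CESA4*, 2.30 for *CESA7* and 2.77 for *CESA8*. It was 3.57 for *CSLA9*, 3.04 for *CSLA11*, 1.65 for *CSLA15* and 1.09 for *CSLA7*. It was 1.50 for *CSLC12*, 1.11 for *CSLC8*, 2.33 for *CSLD5* and 2.43 for *CSLG3*. The value of *CSLE1* was negative, at -3.43. The call of *CSLA15* was lost in 5 of 15 fits with replicates left out and that of *CSLG3* in 8. That of *CSLA7* was lost in 2 of these fits and those of *CESA7*, *CSLC8* and *CSLC12* in 1 each. The *tmt2* arm of each value also holds the labelled difference in age between *tmt2-L-Suc* and *tmt2-S*, and the arrest of *tmt2-S*.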

How the results depend on the processing

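In *tmt2-S*/WT the 13 members called came to between 9 and 13 under the other settings and 10 to 14 with replicates left out, and in *tmt2-S*/*tmt2-L-Suc* the 14 came to between 11 and 16 and 10 to 14. In *tmt2-L-Suc*/WT-Suc the count of 7 became 4 with a |log2FC| of at least 1.2, 11 by DESeq2 and 0 to 13 with replicates left out. In WT-Suc/WT the count of 0 became 2 by DESeq2 and 0 to 3 with replicates left out, and the 10 of the interaction became 5 to 13. Over all genes the interaction calls also moved with replicates left out, to between 1875 and 7176, against 6410 with all libraries. The log2FC of *tmt2-S*/WT changed sign, with no call, among fits with replicates left out for *CESA1* (-0.40 to 0.082), *CESA3* (-0.36 to 0.17) and *CESA6* (-0.34 to 0.018). The cause of these shifts was not tested. *CESA4*, *CESA8*, *CSLA7*, *CSLA9*, *CSLA11*, *CSLB3*, *CSLB4*, *CSLB6*, *CSLD5* and *CSLE1* kept their call in *tmt2-S*/WT in every alternative run, and *CSLC8* in all but the one that asks for a |log2FC| of at least 1.2.

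Equal replicate numbers did not pair the libraries, since the correlation of their deviations lay between -0.29 and 0.33. With the replicate number as a block the counts were 13, 12, 8, 0 and 10 in the order above. The block ended the calls of *CESA7* (adjusted p = 0.053) and *CSLC12* (0.08) in *tmt2-S*/WT, *CESA9* (0.064) and *CSLA2* (0.07) in *tmt2-S*/*tmt2-L-Suc* and *CSLD2* (0.064) in *tmt2-L-Suc*/WT-Suc. It added calls of *CSLA10* (adjusted p = 0.047) in *tmt2-S*/WT and of *CESA2* (0.039) and *CSLA11* (0.035) in *tmt2-L-Suc*/WT-Suc.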
